A study of Arabidopsis thaliana with 5 samples.

Results

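Transcript levels of the pectin methylesterase genes were examined in sorted root cells of Arabidopsis thaliana. The family was taken as a list of 57 loci, and a locus was used where the array had a probe set whose annotation names that gene and no other. This left 38 of the 57 genes, each with 1 such probe set, of 22746 probe sets in all. The other 19 were not analysed here, 4 of them because their probe set names several genes. They are PME1, PME2, PME3, PME5, PME31, PME38, PME44, PE11, PMEPCRA, ATPMEPCRC, RHS12, PPME1, VGD1, VGDH1, VGDH2, QRT1, AT2G26440, AT2G45220 and AT5G07410.

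All seedlings carried the reporter pBRL3:nlsYFP, a nuclear yellow fluorescent protein driven by the promoter of the brassinosteroid receptor gene BRL3, and were 6 days old. The control group (3 arrays, replicates 1 to 3) spent 2 h in liquid medium with ethanol as the mock. The other group (2 arrays, replicates 1 and 2) spent 2 h with 10 nM brassinolide, abbreviated BL, the most active natural brassinosteroid. Primary root tips were then turned into protoplasts, the fluorescent cells were sorted and Affymetrix ATH1 arrays were hybridised with their RNA. The sort keeps every cell in which the promoter drives the reporter, so each array is a mixture of the cell types of that domain. In such bulk samples, fewer cells of a type and less RNA per cell cannot be told apart. Nothing in the labels says that the replicates were grown separately, so the spread behind each p-value is that between arrays and may be technical.

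Pectin methylesterases are secreted enzymes that remove methyl groups from homogalacturonan, the main pectin of the primary cell wall. The acidic stretches they leave can be bridged by calcium, which stiffens the wall, or can be cut by polygalacturonases and pectate lyases, which loosens it. Inhibitor proteins bind the enzymes and block them, and many family members carry an inhibitor-like domain of their own that is cut off during secretion. Pectin methylation also feeds back on brassinosteroid signalling, through the receptor-like protein RLP44 and the co-receptor BAK1.

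Control replicates 2 and 3 stood apart from the other arrays in the signal of spiked-in transcripts. The 9 probe sets for the 3' ends of transcripts spiked in before labelling had a median log2 value of 8.01 on control replicate 2. That median was 7.39 on control replicate 3 and 4.44 to 4.71 on the other arrays. Across probe sets, which are not independent, the correlation was 0.992 between the BL arrays, whereas those of control replicate 2 with any other array were 0.898 to 0.915. Correlations with the other arrays were 0.915 to 0.955 for control replicate 3 and 0.911 to 0.974 for control replicate 1. By this measure control replicate 3 was not set apart. Because of the spiked-in signal, differences are also given against control replicate 1 alone for the genes described in detail. Of the markers for the sorted domain, 2 of 8 vascular and 3 of 6 stem cell niche genes had a usable probe set, and BRL3 itself was not analysed here. The vascular regulator gene PHV was at log2 values of 8.16, 8.42 and 8.82 in the controls and 7.73 and 7.47 with BL, above every array's median of 5.57 to 5.66. Both BL values were below all controls, by a difference of -0.87 ± 0.238 (SE), -0.56 against control replicate 1, which did not pass (limma adjusted p = 0.613). The part of vascular cells in the family's values was not tested. The phloem regulator gene OPS (4.61 to 4.96) and the niche genes JKD (4.02 to 5.07) and AGL42 (at most 4.55) lay below those medians. BBM, a root stem cell regulator, was at 5.68 to 7.07. BRL1, a receptor gene related to BRL3, was at 5.69 to 6.04 on all arrays except control replicate 2, where it was lower.

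Of all 38 genes, the neighbouring genes AT5G51500 and AT5G51490 had the clearest separation between BL and control. AT5G51500 stood at log2 values of 4.66, 4.99 and 4.19 in control replicates 1, 2 and 3 and at 7.50 and 7.59 in BL replicates 1 and 2. Both BL arrays lay far above all 3 controls, and the controls differed among themselves by 0.80. The log2 difference was 2.94 ± 0.267 (SE; 95% interval 2.21 to 3.66), a fold of 7.65. It was 2.89 against control replicate 1 alone. The lowest BL value exceeded the highest control value by 2.52, and 5 of the 22746 probe sets, this one included, had a gap at least that wide. A difference at least as large was found in 20 probe sets. AT5G51490 stood at 4.42, 4.83 and 4.38 in the controls and at 5.60 and 5.95 with BL. Its BL values were again above all controls, with a gap of 0.76 and a difference of 1.23 ± 0.208 (SE; 95% interval 0.66 to 1.79), a fold of 2.34, and 1.35 against control replicate 1 alone. For AT5G51490, 194 probe sets had a gap at least as wide and 532 a difference at least as large. Neither gene passed the test over all probe sets: the limma adjusted p after Benjamini-Hochberg was 0.455 for AT5G51500 and 0.558 for AT5G51490. The control values of both genes lay below every array's median of 5.57 to 5.66. How far such low values lie over background was not analysed, so the folds are uncertain.

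Both genes belong to 1 stretch of the chromosome that also holds a gene for a pectin methylesterase inhibitor-like protein. In the order of protein-coding genes, AT5G51490 is followed by AT5G51500, AT5G51510 and AT5G51520, and of these only AT5G51490 and AT5G51500 are family members. AT5G51510 was at 7.74, 8.99 and 8.45 in the controls and at 8.14 and 8.26 with BL, so its groups overlapped. AT5G51520, the inhibitor-like gene, was at 5.55, 3.84 and 6.85 in the controls and at 6.26 and 7.09 with BL. Its difference of 1.26 ± 0.987 (SE), 1.12 against control replicate 1, was within the spread of the controls, and the groups overlapped. On the other side, AT5G51470, which is no family member and is separated from AT5G51490 by AT5G51480 (not analysed here), was at 10.73, 3.87 and 10.73 in the controls and at 10.78 and 11.45 with BL. Both BL values lay above its controls, and its difference of 2.67 was 0.38 against control replicate 1. Separate probe sets that each name 1 gene measured AT5G51490 and AT5G51500. Whether a transcript of one hybridises to the probe set of the other was not tested.

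**Figure D1:**
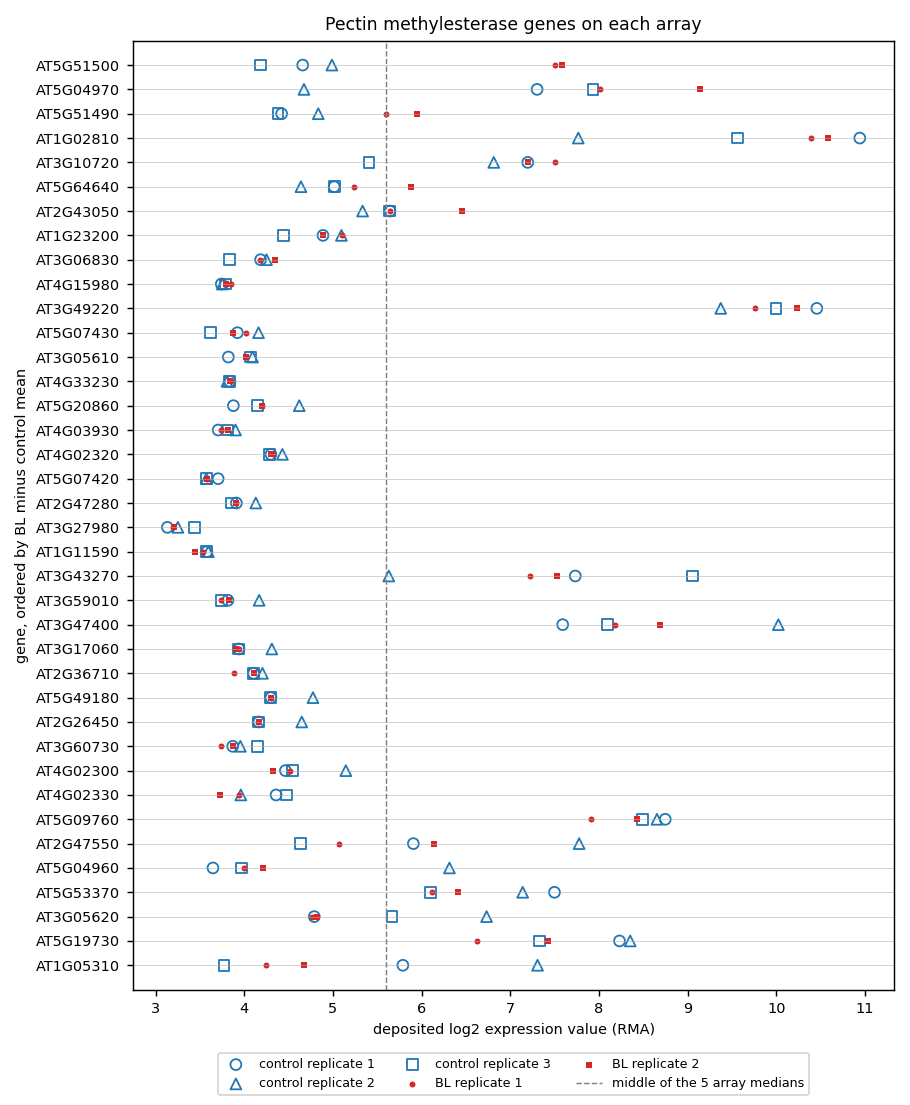
Deposited log2 expression value (horizontal axis) of each of the 38 measured pectin methylesterase genes (rows, ordered by BL mean minus control mean) on each array: open blue symbols are the 3 controls, filled red symbols the 2 BL arrays, and the dashed line the middle of the 5 array medians. AT5G51500 in the top row has both BL values near 7.5 and all controls below 5, while most rows left of the dashed line show the 5 arrays close together.

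Another 4 genes made up the rest of the higher end of the family, and in 3 of them the controls spanned 1.79 to 3.26 log2 units. AT5G04970 was at 7.30, 4.67 and 7.93 in control replicates 1, 2 and 3 and at 8.01 and 9.14 with BL. Both BL values lay above the controls, but BL replicate 1 exceeded control replicate 3 by only 0.08. The difference of 1.94 ± 1.15 (SE) was 1.27 against control replicate 1 alone. AT5G64640 was at 5.01, 4.64 and 5.01 in the controls and at 5.24 and 5.88 with BL, a difference of 0.67 ± 0.257 (SE) without overlap, and 0.55 against control replicate 1. AT1G02810 was at 10.94, 7.77 and 9.56 in the controls and at 10.39 and 10.59 with BL. Its highest value was that of a control, so the difference of 1.07 turned to -0.45 against control replicate 1. AT3G10720 was at 7.20, 6.81 and 5.41 in the controls and at 7.51 and 7.20 with BL. BL replicate 2 and control replicate 1 shared 1 value, and the difference of 0.88 became 0.15 against control replicate 1. The limma adjusted p of these 4 genes ran from 0.715 to 0.820.

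At the lower end, none of the 6 genes with the most negative differences had groups that did not overlap. AT1G05310 had the most negative difference, -1.17 ± 1.13 (SE), from 5.79, 7.31 and 3.77 in the controls to 4.25 and 4.67 with BL. Control replicate 3 was lower than both BL arrays. The difference was -0.32 without control replicate 2, -2.09 without control replicate 3 and -1.33 against control replicate 1 alone. AT5G19730 was at 8.23, 8.35 and 7.33 in the controls and at 6.62 and 7.43 with BL, a difference of -0.95 ± 0.440 (SE), and -1.21 against control replicate 1. Only BL replicate 1 was below every control. PMEPCRF (AT5G53370) was at 7.50, 7.14 and 6.10 in the controls and at 6.12 and 6.41 with BL. Its difference of -0.65 became -1.24 against control replicate 1, because control replicate 3 was as low as the BL arrays. AT3G05620 was at 4.79, 6.73 and 5.67 in the controls and at 4.76 and 4.82 with BL. Its difference of -0.94 rested on control replicates 2 and 3, and against control replicate 1 it was -0.00014.

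For the remaining genes of the lower end control replicate 2 stood apart. AT5G04960 was at 3.65, 6.31 and 3.97 in the controls and at 3.99 and 4.21 with BL. AT2G47550 was at 5.91, 7.78 and 4.64 in the controls and at 5.07 and 6.14 with BL. In both, control replicate 2 was the highest array. The difference of AT5G04960 went from -0.54 to 0.45 against control replicate 1, and that of AT2G47550 from -0.50 to -0.30. The limma adjusted p of the 6 genes ran from 0.748 to 0.903.

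The 4 genes with the highest log2 values were AT1G02810, described above, AT3G49220, AT3G47400 and AT5G09760. This is an order of probe set signals, and amounts of transcript are not compared between genes here. AT3G49220, a gene known to act in the heat response of guard cells, was at 10.46, 9.37 and 10.00 in the controls and at 9.76 and 10.24 with BL. Its groups overlapped and the difference was 0.06, with a 95% interval of -0.98 to 1.09. Against control replicate 1 alone that difference turned to -0.46. AT3G47400 was at 7.59, 10.02 and 8.10 in the controls and at 8.19 and 8.69 with BL. Control replicate 2 was again the highest array, and the difference of -0.14 turned to 0.84 against control replicate 1. AT5G09760 was at 8.75, 8.66 and 8.49 in the controls and at 7.91 and 8.43 with BL, so both BL arrays lay below all controls. Its difference was -0.46 ± 0.201 (SE), -0.58 against control replicate 1, and did not pass (limma adjusted p = 0.743). It was -0.20 without BL replicate 1 and -0.72 without BL replicate 2.

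Over the family, limma called 0 of 38 genes at an adjusted p under 0.05 after Benjamini-Hochberg over all probe sets, where it called 0% of all probe sets. At an unadjusted p under 0.05 there were 2 of 38 genes, AT5G51500 and AT5G51490, or 5.26%, against 7.1% of all probe sets. The same 2 genes were higher with BL by a fold of at least 1.5 at an unadjusted p under 0.01, which held for 0.853% of all probe sets. In the lower direction that count was 0 of 38, against 0.712% of all probe sets. The count of 2 became 1 when control replicate 1, control replicate 3, BL replicate 1 or BL replicate 2 was left out. The BL values lay above all control values in 4 genes, AT5G51500, AT5G04970, AT5G51490 and AT5G64640, which is 10.5% of the family and 11.4% of all probe sets. They lay below all control values in 3 genes, AT5G09760, ATPMEPCRB and AT1G11590, which is 7.89% of the family and 9.75% of all probe sets. Both shares were near the background. A fold of at least 2 was seen upward in 4 genes (10.5%, against 3.5% of all probe sets) and downward in 1 (2.63%, against 3.2%). The median log2 difference of the 38 genes was -0.06, and over all 13286 genes with a usable probe set it was -0.03.

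Against control replicate 1 alone, 3 genes were at least 2-fold higher with BL and 3 at least 2-fold lower. The higher ones were AT5G51500, AT5G51490 and AT5G04970, or 7.89% of the family, against 1.78% of all probe sets. The lower ones were AT1G05310, PMEPCRF and AT5G19730, again 7.89%, against 4% of all probe sets. Both BL arrays taken singly were at least 2-fold above control replicate 1 in AT5G51500 and AT5G51490, which held for 1.08% of all probe sets. Both were at least 2-fold below it in PMEPCRF and AT1G05310, which held for 2.97%. This comparison shares its BL arrays and control replicate 1 with the comparison over all controls, so the differences are given side by side and not as a repeat. In all, 18 genes had a positive and 18 a negative difference from control replicate 1, and 2 had a difference of 0. Against all controls the split was 14 positive and 24 negative. Over all genes with a usable probe set it was 6891 positive, 5688 negative and 707 at 0 against control replicate 1, and 5800 positive and 7406 negative against all controls. The limma fit with a term for controls 2 and 3 called 0 of 38 genes and 0% of all probe sets after Benjamini-Hochberg adjustment, with 2 genes at an unadjusted p under 0.05, against 8.08% of all probe sets.

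**Figure D2:**
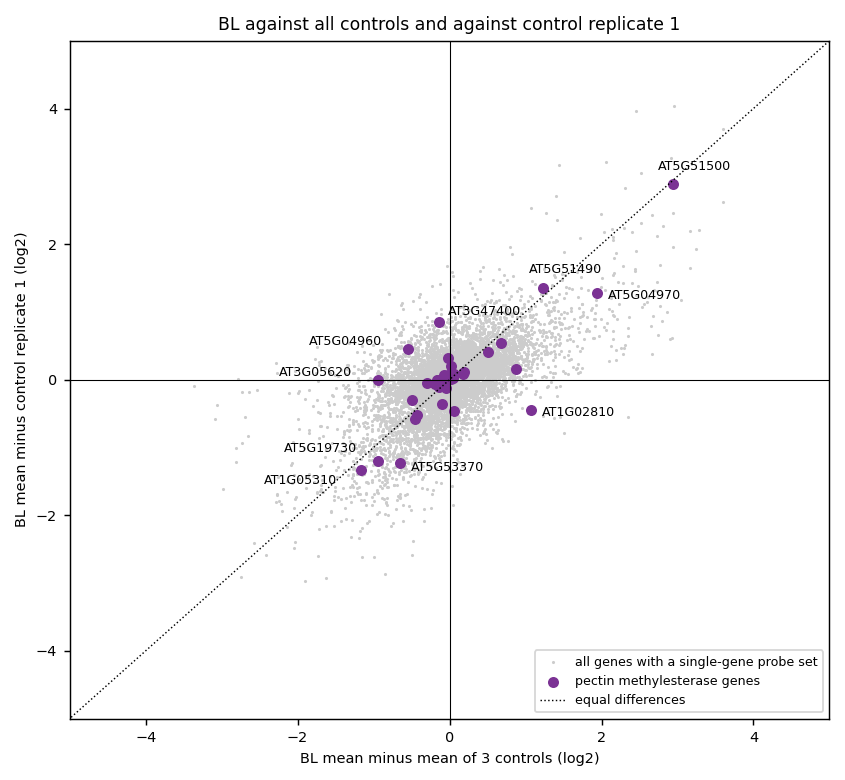
Log2 difference between the BL mean and the mean of the 3 controls (horizontal axis) against the BL mean minus control replicate 1 (vertical axis) for each pectin methylesterase gene (purple) and every gene with a usable probe set (grey); the dotted line marks equal differences. AT5G51500 and AT5G51490 lie near the line at 2.94 and 1.23. AT1G02810, AT3G47400 and AT5G04960 are among 8 of the 38 family members with opposite signs on the 2 axes. Opposite signs were also found in 3703 of all 13286 genes with a usable probe set. The axes share the BL arrays and control replicate 1.

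The probe sets of most family members gave low signal. For 26 of the 38 genes the mean over the 5 arrays was at or below the median probe set mean of 5.65, and for 15 it was below 4.17, the 25th percentile of all values. Among all 13286 genes with a usable probe set, 7297 were at or below the same median and 3698 were below 4.17. In the 15 dim genes the 5 arrays spanned at most 0.75 log2 units. Over all genes below that percentile the largest span was 2.18, a maximum taken over many more genes. Of the 12 genes above the median, 11 spanned at least 1 log2 unit over the 5 arrays, whereas 5 of the 26 others did. Over all genes with a usable probe set these counts were 2871 of 5989 and 837 of 7297. How far low values lie over background was not analysed, and in 17 of the 38 genes at least 2 arrays had identical values, which the summary of probes by median polish can produce. The same held for 6291 of the 13286 genes, a like share.

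Genes known for pollen and anthers were all among the dim ones. Of 13 listed genes, 7 had a usable probe set: AT2G47280, AT3G05610, AT3G06830, AT3G17060, AT4G15980, AT5G07420 and AT5G07430. Their values on the 5 arrays ran from 3.57 (AT5G07420, control replicate 2) to 4.35 (AT3G06830, BL replicate 2). Their differences between BL and control ran from -0.14 to 0.18, with 4 positive and 3 negative. None of the 7 had groups that did not overlap. Over all probe sets, BL values lay above all controls in 11.4% and below them in 9.75%, so with 7 genes this is not read as a trait of the group.

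Of 8 genes listed for growing vegetative organs, only PME61 (AT3G59010) and AT3G43270 were measured. PME61, also called PME35 and known for its part in the strength of the stem, was at 3.82, 4.17 and 3.74 in the controls and at 3.74 and 3.82 with BL. The groups coincided apart from control replicate 2. AT3G43270 was at 7.73, 5.63 and 9.05 in the controls and at 7.22 and 7.53 with BL. Its controls spanned 3.42 log2 units, with both BL arrays inside that span, and its difference was -0.10 ± 1.09 (SE), or -0.36 against control replicate 1.

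The genes known from seed coat mucilage and guard cells were AT1G23200, AT5G49180 and AT3G49220, the last described above. AT1G23200, which acts in seed mucilage and in stomata, was at 4.89, 5.10 and 4.45 in the controls and at 5.10 and 4.89 with BL. AT5G49180, which acts in seed mucilage, was at 4.30 on every array except control replicate 2, where it was at 4.77. Neither showed a separation of the groups.

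ATPMEPCRB (AT4G02330), also named PME41 and known for a part in brassinosteroid-dependent chilling responses, was the only measured gene of the 3 listed for stress, pathogens and brassinosteroid links. It was at 4.36, 3.96 and 4.48 in the controls and at 3.94 and 3.73 with BL. Both BL arrays lay below the controls, though BL replicate 1 was barely under control replicate 2. The difference of -0.43 ± 0.199 (SE) was -0.52 against control replicate 1 and did not pass (limma adjusted p = 0.748).

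Of the other 11 measured genes, 10 differed little between the groups. ATPMEPCRD (AT2G43050) was at 5.64, 5.33 and 5.64 in the controls and at 5.64 and 6.45 with BL, so BL replicate 2 carried its difference of 0.51, which was 0.40 against control replicate 1. The other 10 were AT1G11590, AT2G26450, AT2G36710, AT3G27980, AT3G60730, AT4G02300, AT4G02320, AT4G03930, AT4G33230 and AT5G20860. Their values lay between 3.13 (AT3G27980, control replicate 1) and 5.15 (AT4G02300, control replicate 2), below the median of every array. Their differences ran from -0.30 (AT4G02300) to 0.02 (AT4G33230). In 7 of the 10 control replicate 2 was the single highest array, against 34.0% of all genes with a usable probe set. AT1G11590 was the one whose BL values, 3.53 and 3.45, lay below its controls of 3.58, 3.59 and 3.58, with a difference of -0.09.

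Many genes of the family lie side by side. In the order of protein-coding genes, 13 pairs of adjacent loci are both members, 25 genes take part in them, and 5 pairs had both genes measured. Of these 5, AT5G51490 and AT5G51500 were the only pair in which both genes had groups that did not overlap. AT5G04960 and AT5G04970 differed in sign, at -0.54 and 1.94 against all controls, and shared a positive sign, at 0.45 and 1.27, against control replicate 1. On control replicate 2, AT5G04960 had its highest value of the 5 arrays and AT5G04970 its lowest. AT3G05610 and AT3G05620 had differences of 0.02 and -0.94, AT4G02320 and ATPMEPCRB (AT4G02330) of -0.03 and -0.43, and AT5G07420 and AT5G07430 of -0.04 and 0.05. In these last 3 pairs, every gene except AT3G05620 lay below the array medians on all arrays and spanned less than 1 log2 unit.

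**Figure D3:**
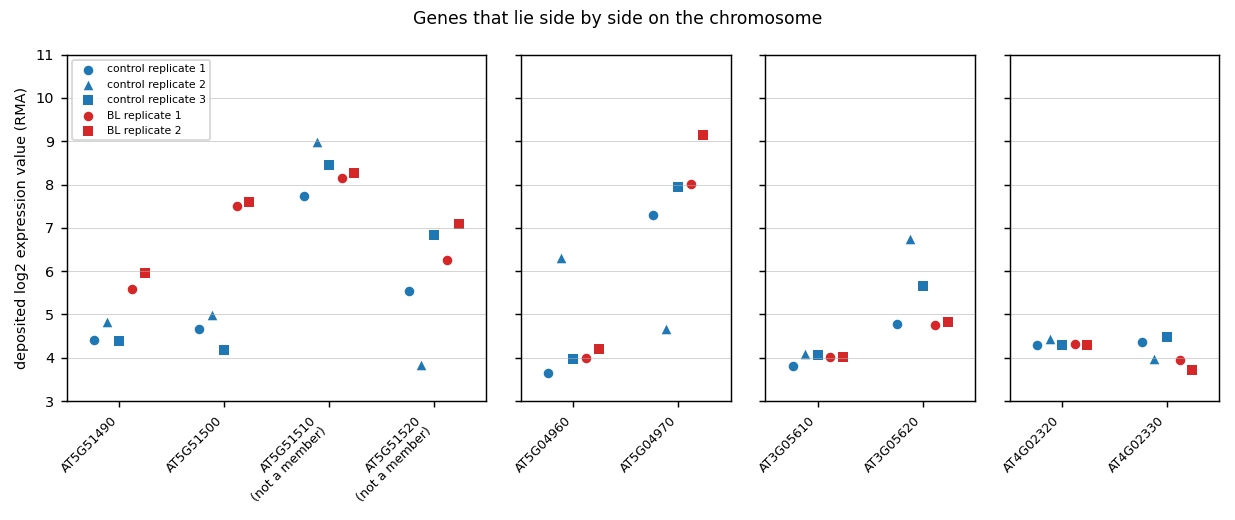
Deposited log2 expression value (vertical axis) of genes adjacent on the chromosome, in 4 panels, on the 3 control arrays (blue) and the 2 BL arrays (red). AT5G51490 and AT5G51500 have BL values above all controls, the genes that follow, AT5G51510 and AT5G51520, do not, and on control replicate 2 (triangle) AT5G04960 is high where AT5G04970 is low.

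Control replicate 2 was the array on which family members most often stood apart. It was the single highest array for 19 of the 38 genes (50% of them) and the single lowest for 8. Over all genes with a usable probe set it was the highest for 34.0% and the lowest for 3223 of 13286. It was the highest or lowest for 71.1% of the family and for 58.2% of all such genes. The root hair expansin genes EXPA7 and EXPA18, the only 2 of 6 listed hair and epidermis markers that were measured, moved with it. EXPA7 was at 6.52 in control replicate 2 and at 4.20 to 4.96 on the other arrays, and EXPA18 was at 6.17 against 4.35 to 5.54. The cortex marker gene AT1G62500 was at 4.28 in control replicate 2 and at 3.46 to 3.89 elsewhere. The part of such cells in the family's values was not tested.

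Among genes for proteins that inhibit pectin methylesterases, a few had BL values above all controls and none was called. Of 32 listed inhibitor and inhibitor-like genes, 25 were measured, 12 with a positive and 13 with a negative difference. Their median difference was -0.0026, against -0.03 over all genes, and limma called 0 of 25 after Benjamini-Hochberg adjustment, with 2 at an unadjusted p under 0.05, which held for 7.1% of all probe sets. Those 2 were AT3G47380 and AT5G62350. AT3G47380 was at 4.86, 4.90 and 4.90 in the controls and at 5.49 and 5.68 with BL. Its difference of 0.70 ± 0.0986 (SE) was 0.73 against control replicate 1 (limma adjusted p = 0.548). AT5G62350 was at 10.66, 10.92 and 10.81 in the controls and at 11.51 and 11.20 with BL, a difference of 0.56 ± 0.150 (SE) and 0.70 against control replicate 1 (limma adjusted p = 0.612).

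In 5 of the 25 inhibitor genes both BL arrays lay above all controls, and in 0 below, against 11.4% and 9.75% of all probe sets. Beside AT3G47380 and AT5G62350 they were AT1G10770, AT4G25250 and AT4G25260, the last 2 named because their values were seen. AT1G10770 was at 4.37, 4.26 and 5.02 in the controls and at 5.13 and 5.54 with BL. AT4G25250 was at 3.91, 4.12 and 3.78 in the controls and at 4.36 and 6.04 with BL, so BL replicate 2 carried most of its difference of 1.26. AT4G25260, whose product inhibits pectin methylesterases, was at 6.72, 4.23 and 6.83 in the controls and at 7.53 and 7.43 with BL. Its difference of 1.56 was 0.77 against control replicate 1, and that of AT4G25250 was 1.29. On the lower side, AT5G38610 and AT1G14890, named after their values were seen, had the most negative differences of the list. AT5G38610 was at 5.76, 7.59 and 4.19 in the controls and at 3.99 and 4.31 with BL. Its difference of -1.70 ± 1.08 (SE) was -1.61 against control replicate 1, and control replicate 3 lay between the BL values. AT1G14890 was at 7.58, 9.59 and 6.70 in the controls and at 6.78 and 6.98 with BL, a difference of -1.07 that was -0.70 against control replicate 1.

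**Figure D4:**
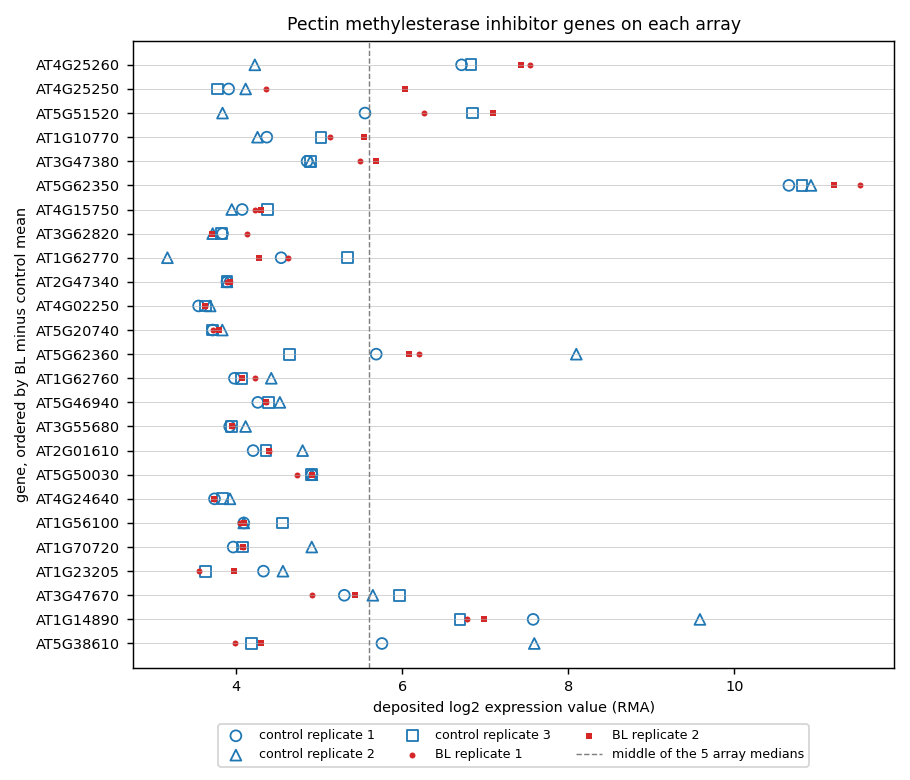
Deposited log2 expression value (horizontal axis) of the 25 measured pectin methylesterase inhibitor and inhibitor-like genes (rows, ordered by BL mean minus control mean) on each array, with symbols and dashed line as for the enzymes. In AT4G25260, AT4G25250, AT1G10770, AT3G47380 and AT5G62350 both BL arrays lie to the right of every control. AT5G62360, AT1G14890 and AT5G38610 are among the many rows with the highest value on control replicate 2.

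Few other genes of the pathway were measured. Of 19 genes listed for the synthesis and methylation of homogalacturonan, 2 had a usable probe set, and limma called neither. AT3G49720, a pectin methyltransferase gene, was at 10.48, 10.20 and 10.44 in the controls and at 10.49 and 10.62 with BL, a difference of 0.18 ± 0.129 (SE). GAUT15, of the galacturonosyltransferase family, differed by 0.03. FER, a receptor kinase that binds pectin, was the only measured gene of 8 listed for pectin sensing and its feedback on brassinosteroid signalling. It was at 8.71, 7.37 and 7.45 in the controls and at 8.45 and 8.93 with BL. Control replicate 1 lay between the BL values, so the difference of 0.85 became -0.02 against that array.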

How the data were processed

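The deposited log2 values came from RMA, which the authors ran in R 4.1.1 with affy 1.70.0 and limma 3.48.3, per the submitters' processing notes. In RMA, background is subtracted, arrays are quantile normalized and probes are combined by median polish. Base 2 was inferred, as RMA uses it and the values fit it. After 64 control probe sets were left out, 22746 remained, of which 13513 name 1 gene in the platform annotation and 503 several. Loci, symbols and gene order came from a RefSeq gene table of TAIR10.1, and no coordinates are printed.

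BL was compared with control by limma 3.58.1 in R 4.3.3 (lmFit, eBayes, 5 arrays, treatment as the only term), with p-values adjusted by Benjamini-Hochberg over all probe sets. A second fit added a term for controls 2 and 3. The code was tested on simulated data. The list of members and the other lists were chosen with earlier results of these data known. Values on every array are given for the 6 most positive and 6 most negative differences, the 4 highest levels and genes with a listed role, except that pollen genes are given by their range. Of other lists, up to 3 genes with the smallest p are named. Markers of the root cap and of pollen had no usable probe set. Alternatives changed the terms, filter, floor, normalization, variance model, weights and arrays. Precision is limited by the number of arrays.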

Additional observations from a re-analysis of the deposited data

How the results depend on the processing

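The count of 0 family genes past an adjusted p of 0.05 held in all 14 alternative fits, where the smallest limma adjusted p of a named gene was 0.078 (AT5G51500 with array weights, its range being 0.078 to 1). The difference of AT5G51500 ran from 2.72 to 3.16 and AT5G51490 from 1.05 to 1.40. The 2 genes that reached a fold of 1.5 and an unadjusted p under 0.01 became 1 among probe sets above the median level, in the ordinary linear model, and with a term for or without controls 2 and 3, 1 to 2 with 1 array left out, and 5 for a fold of at least 2 alone. The cause was not tested, except that fewer probe sets, fewer arrays or another rule enter by construction. A fold of at least 2 alone held for 3.5% of all probe sets upward and 3.2% downward. For most other alternatives no share of all probe sets is given, so these counts are not read as a result about the family. Of 362 values of 27 named genes under alternatives, 321 kept their direction, 30 turned and 11 were exactly 0. Setting controls 2 and 3 apart by a term, or leaving both out, gave the same differences: AT1G02810 turned to -0.45, AT3G49220 to -0.46, AT3G47400 to 0.84 and AT5G04960 to 0.45. With array weights, AT3G49220 turned to -0.020, AT3G47400 to 0.20, AT2G47550 to 0.30 and AT2G47280 to 0.0077. Leaving out 1 array at a time (a single BL array is then taken to be as variable as the controls) gave both signs for some genes: AT2G47280 from -0.11 to 0.027, AT2G47550 from -1.23 to 0.34, AT3G05610 from -0.062 to 0.074, AT3G43270 from -1.02 to 0.69, AT3G47400 from -0.63 to 0.59, AT3G49220 from -0.23 to 0.31, PME61 (AT3G59010) from -0.21 to 0.0030, AT5G04960 from -1.04 to 0.29, AT5G07420 from -0.064 to 0.0023 and AT5G07430 from -0.095 to 0.18. Their cause was not tested.

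Replicate numbers were not shown to pair arrays, since the correlation of deviations from group means was -0.060 for replicates 1 and 0.037 for replicates 2. The deviations of 2 BL arrays from their mean are exact opposites, so these correlations are not separate checks and do not settle whether arrays were paired. With the replicate block the counts stayed at 0 and 2, AT5G07430 turned to -0.095 and AT3G43270 to 0.69. The median difference of -0.06 ran from -0.09 to 0.01 over the alternatives and was -0.02 in the 12 genes above the median level, a subset chosen after seeing the data. Every measured member had 1 probe set, so the mean over probe sets gave no other value.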
